A study of Mus musculus with 6 samples.

Results

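The RNA of 30 genes that make, sense, move and store cholesterol and fatty acids was followed in frontal cortical tissue 10 days after microglia depletion. The genes were taken by symbol from the deposited table of 23366 genes. They are 16 enzymes of cholesterol synthesis, 5 genes of the Srebp machinery that senses sterols, 6 genes of uptake, transport, esterification and turnover, and 3 genes of fatty acid synthesis and desaturation. All 30 were found, and all 30 were among the 14385 genes that averaged 0.5 FPKM or more (fragments per kilobase of transcript, scaled to the depth of the library), the genes that were tested. The list was drawn up without using the difference between the groups, although results of these mice were already known.

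Cortex of 3 depleted mice (A4, A5 and A6) was compared with cortex of 3 littermate control mice (A1, A2 and A3), all C57BL/6, with 1 poly(A) library per mouse. Values for single mice are given in this order within each group. The depleted mice were CX3CR1-CreERT2+/- iDTR+/-, which carry an inducible Cre under the CX3CR1 promoter and a diphtheria toxin receptor behind a floxed STOP, and control mice were CX3CR1-CreERT2+/- without iDTR. Both genotypes received tamoxifen, diphtheria toxin (DT) was used for depletion, and whether the control mice of these libraries had DT is not stated in the sources used here. At this day microglia have grown back in this model, so the comparison is of cortex after loss and return of microglia. The age of the mice is not given beyond adult.

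The brain makes nearly all of its own cholesterol, since lipoproteins of the blood do not pass the blood-brain barrier. Acetyl-CoA is built up through mevalonate to farnesyl diphosphate, joined to squalene, closed to lanosterol and trimmed to cholesterol, mostly in oligodendrocytes that build myelin and in astrocytes that supply neurons. When sterols in the endoplasmic reticulum are low, Scap carries the Srebp proteins to the Golgi, where they are cut and released to switch on these enzymes, while Insig proteins hold Scap back when sterols are plentiful. Neurons dispose of cholesterol by Cyp46a1, which hydroxylates it so that it can leave the brain.

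The libraries differed in depth and in other ways. Every depleted library was estimated to be shallower than every control library, so depth and depletion cannot be told apart. The spacing of the low FPKM values put 14.6, 20.45 and 18.3 M fragments behind the control libraries against 13.75, 3.55 and 11.25 M behind the depleted ones. These depths take 1 step as 1 fragment over the full annotated transcript, so they are estimates. If A5 had 2 times the depth given, its low values would hold odd as well as even numbers of steps, but 14% were odd, against 14% to 20.6% when the depths of the other libraries were doubled. At the estimated depth of A5, the shallowest library, Mvk rested on about 62.5 fragments, the fewest of the 30 genes, which gives a counting error of 12.7%, and Scd2 on about 6493. Depleted mouse A4 stood apart. Over all genes tested its values deviated from the mean of the 6 mice with an SD of 0.32 on the log2 scale, against 0.174 to 0.238 in the other mice, and 10 interferon-stimulated genes summed to 383.6 FPKM there, against 72.9 to 77.2 FPKM in the other depleted mice and 27.2 to 37.6 FPKM in control mice. The FPKM of 4 Y-linked genes summed to 5.56 in A4, where no other mouse exceeded 0.16, while Xist was lowest in A3, at 4.74 FPKM, and was at 30.9 FPKM in A4 and 38.1 to 46.7 FPKM in the other mice. The methods of the study describe the mice as sex-matched. The part of depth, sex or interferon response in any result was not tested.

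Most of the 30 genes had overlapping levels in control and depleted mice, and most of the larger gaps were in 1 depleted mouse, A4. In limma, 0 of the 30 had an adjusted p-value under 0.1, where 0.0278% of all genes tested had one, and the lowest adjusted p-value of the 30 was 0.432, for Scap. The same test also called 0 of the 10 interferon-stimulated genes. Their median difference was 1.78, and the groups did not overlap in all 10, against 17.6% of all genes tested. A count of 0 here therefore does not show equal levels. Without adjustment, 2 of the 30 (Mvk and Scap, both lower in depleted mice) had p-values under 0.05, where 10.5% of all genes tested did and 5.74% did with lower levels. That count was 0 without A1 or without A3, 1 without A2 and 4 without A5. Control and depleted mice were fully separate in 3 of the 30 genes (Scap, Dhcr7 and Scd1, each lower in depleted mice), where 17.6% of all genes tested did not overlap and 9.38% did so with lower levels in depleted mice. This count was 1 after rescaling to TPM. The shares of the 30, 6.67% and 10%, were thus below those of all genes tested in either direction and close to those in the lower direction. On the log2(FPKM + 1) scale the mean was lower in depleted mice for 23 of the 30, where 52% of all genes tested were lower. The median difference on this scale was -0.055, against -0.0085 over all genes tested. With A4 left out the median of the 30 was -0.03, and with another mouse left out it was -0.037 without A1, -0.078 without A2, -0.1 without A3, -0.15 without A5 and -0.11 without A6.

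**Figure D1:**
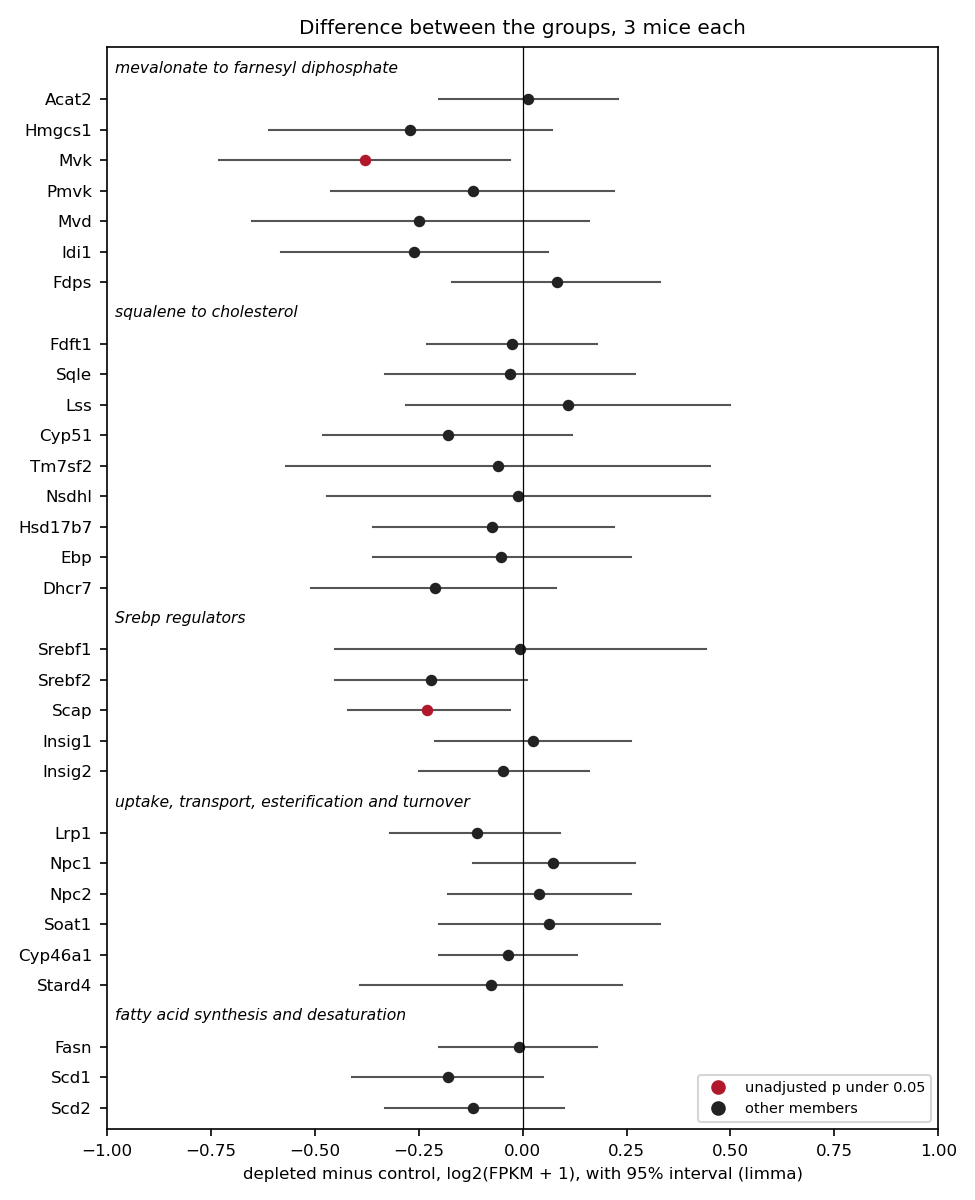
Difference between depleted and control mice for each of the 30 genes, as log2(FPKM + 1) on the x axis, with points for the estimate and bars for the 95% interval from limma, grouped by role. Red points mark Mvk and Scap, with an unadjusted p-value under 0.05, and the bars of the other 28 genes cross 0.

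Each interval from limma holds for its gene alone, on the log2(FPKM + 1) scale, and the intervals carry no joint level of confidence. The 95% intervals of all 30 genes lay within 1 on the log2 scale in either direction, and those of 24 lay within 0.5. The others, Mvk, Mvd, Hmgcs1, Idi1, Tm7sf2 and Dhcr7, all synthesis enzymes, passed 0.5 on the lower side only. The lowest bound was that of Mvk, at -0.73, and the highest that of Lss, at 0.50. The standard error ran from 0.0731 for Cyp46a1 to 0.22 for Tm7sf2. Because whole cortex was sequenced, fewer cells of a type and less RNA per cell cannot be told apart in any of these values.

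Enzymes from acetyl-CoA to farnesyl diphosphate had a median difference of -0.25 over 7 genes, and of -0.084 without A4. Mvk, which phosphorylates mevalonate, was at 12.96, 10.50 and 11.22 FPKM in control mice against 6.82, 10.60 and 8.80 FPKM in depleted mice. A4 and A6 were below every control mouse, and A5 lay between 2 of them. The means were 11.6 ± 1.26 FPKM against 8.74 ± 1.89 FPKM (SD, n = 3 per group), a difference of -0.38 (standard error 0.15, unadjusted p = 0.0364 and adjusted p = 0.451 in limma; exact two-sided permutation test, p = 0.2). Mvk lies at chr5:114444269-114460591 of GRCm38 in GENCODE M21. After a correction for the GC content of transcripts, 0 of the 30 genes had an unadjusted p-value under 0.05 in limma, against 2 without it. Mvk was then at -0.28 (unadjusted p = 0.093 and adjusted p = 0.606 in limma) and Scap at -0.17 (unadjusted p = 0.0687 and adjusted p = 0.578 in limma).

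Hmgcs1, the synthase that makes HMG-CoA, was the most abundant enzyme of sterol synthesis in the list and stood at 88.55, 88.59 and 72.19 FPKM in control mice against 54.00, 79.23 and 74.89 FPKM in depleted mice. A5 and A6 lay inside the control range, and A4 was at 65% of the control mean. Its difference was -0.27 (standard error 0.15, adjusted p = 0.556 in limma). Idi1, which interconverts the isoprene units that are joined to farnesyl diphosphate, showed 23.04, 20.91 and 18.81 FPKM against 13.97, 18.11 and 20.20 FPKM, a difference of -0.26 (adjusted p = 0.539 in limma). Mvd, the decarboxylase before it, showed 14.17, 9.90 and 13.10 FPKM against 7.89, 12.36 and 10.71 FPKM, with a difference of -0.25 (adjusted p = 0.642 in limma). In both genes A4 was lowest, and of the other depleted mice only A5 in Idi1 was below the control range. Pmvk, the kinase between Mvk and Mvd, differed by -0.12 in the same comparison and by 0.049 with A4 left out.

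Fdps, the farnesyl diphosphate synthase, had the highest difference of these 7 genes, at 50.22, 44.70 and 48.84 FPKM in control mice against 42.96, 55.63 and 54.71 FPKM in depleted mice. The depleted mice thus surrounded the control mice, with A4 below and the other two above them, and the difference was 0.083 (standard error 0.11, adjusted p = 0.814 in limma). Acat2, a cytosolic thiolase that condenses acetyl-CoA at the entry to the pathway, was at 24.5 ± 2.45 FPKM against 24.7 ± 1.07 FPKM (SD, n = 3 per group), and was the one gene of these 7 that was not lowest in A4.

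**Figure D2:**
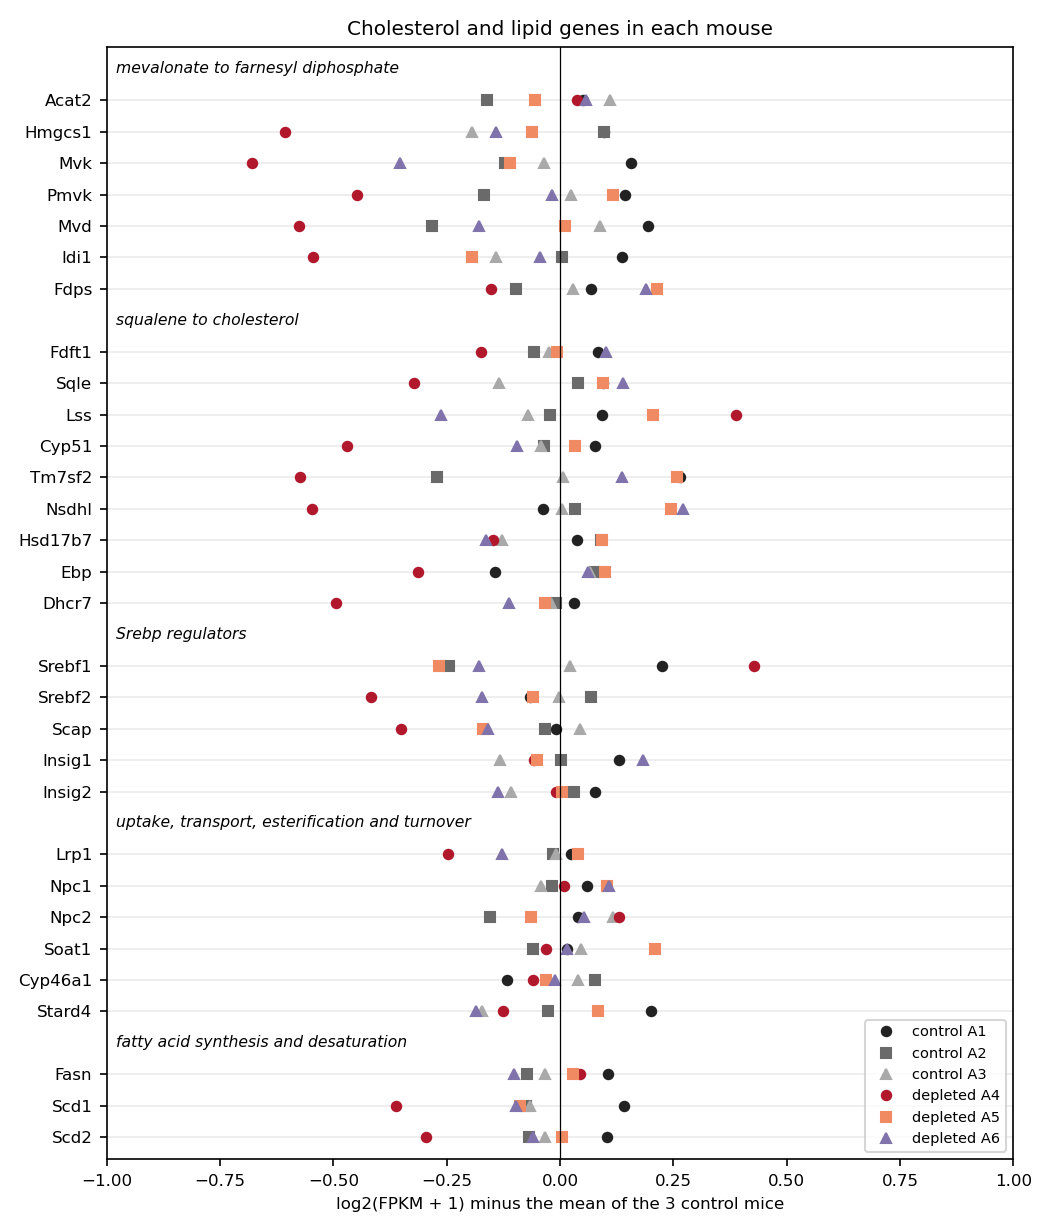
Level of each of the 30 genes in each mouse, as log2(FPKM + 1) minus the mean of the 3 control mice on the x axis, with a symbol per mouse and genes grouped by role. A4 lies furthest to the left in 18 of the 30 genes, and furthest to the right in 3 (Lss, Srebf1 and Npc2), where it was highest in 26.9% of all genes tested.

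From squalene to cholesterol the median difference of 9 enzymes was -0.051, and it was 0.048 without A4. Dhcr7, the reductase of the last step, was at 12.36, 12.01 and 11.90 FPKM in control mice against 8.29, 11.79 and 11.10 FPKM in depleted mice. Every depleted mouse was below every control mouse, with A5 close to A3. The difference was -0.21 (standard error 0.13, adjusted p = 0.59 in limma; exact two-sided permutation test, p = 0.1, which 3 mice against 3 cannot go below). Lss, which closes the ring to lanosterol, was highest in A4. It was at 5.75, 5.24 and 5.03 FPKM in control mice against 7.29, 6.30 and 4.28 FPKM in depleted mice, so that the depleted mice held both the highest and the lowest value. Its difference was 0.11 (standard error 0.17, adjusted p = 0.844 in limma).

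Nsdhl, a dehydrogenase that helps remove the methyl groups of lanosterol, differed in opposite directions with and without A4. It was at 12.77, 13.45 and 13.16 FPKM in control mice against 8.67, 15.73 and 16.04 FPKM in depleted mice, below all control mice in one depleted mouse and above all of them in the other two. The difference was -0.01 (adjusted p = 0.99 in limma) with all mice and 0.26 (adjusted p = 0.276 in limma) without A4. Sqle, the epoxidase that oxidises squalene and a control point of the pathway, was at 23.99, 23.05 and 20.29 FPKM in control mice against 17.72, 23.97 and 24.74 FPKM in depleted mice, and Tm7sf2, a sterol reductase, differed by -0.06 with all mice and by 0.2 without A4. Cyp51, the demethylase that acts on lanosterol, was at 70.6% of the control mean in A4 and at 19.04 and 17.35 FPKM in A5 and A6, next to 18.6 ± 0.931 FPKM (SD, n = 3) in control mice. Fdft1, Ebp and Hsd17b7 differed by -0.026, -0.051 and -0.073, less than their standard errors of 0.0912, 0.13 and 0.13.

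The 5 genes of the Srebp machinery had a median difference of -0.048, and of -0.12 without A4. In A4, Srebf1 was above the control mice, Srebf2 and Scap were below them, and the Insig genes lay among them. Srebf2, which encodes the Srebp that acts mainly on cholesterol enzymes, was at 44.07, 48.55 and 46.17 FPKM in control mice against 34.38, 44.28 and 40.89 FPKM in depleted mice. A5 was just above the lowest control mouse, and the other depleted mice were below all of them. The means were 46.3 ± 2.24 FPKM against 39.9 ± 5.03 FPKM (SD, n = 3 per group), a difference of -0.22 (standard error 0.10, unadjusted p = 0.0629 and adjusted p = 0.498 in limma; exact two-sided permutation test, p = 0.2). Srebf1, whose main product acts on fatty acid genes, was at 13.73, 9.63 and 11.79 FPKM in control mice against 15.95, 9.48 and 10.13 FPKM in depleted mice. A4 was thus the highest of the 6 mice in Srebf1 and the lowest in Srebf2. The ratio of Srebf2 to Srebf1 FPKM was 3.21, 5.04 and 3.92 in control mice against 2.16, 4.67 and 4.04 in depleted mice (p = 0.7 in an exact two-sided permutation test between the groups).

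Scap (chr9:110333288-110384950 of GRCm38), the escort of the Srebp proteins, had the lowest p-value of the 30 genes. It was at 23.59, 23.16 and 24.49 FPKM in control mice against 18.40, 20.99 and 21.17 FPKM in depleted mice, so all depleted mice were below all control mice, at 85% of the control mean on average. The difference was -0.23 (standard error 0.0855, 95% interval -0.42 to -0.03, unadjusted p = 0.0282 and adjusted p = 0.432 in limma; exact two-sided permutation test, p = 0.1). Insig1, which retains Scap and is itself a target of Srebp, was at 34.69, 31.66 and 28.75 FPKM in control mice against 30.33, 30.46 and 36.01 FPKM in depleted mice, a difference of 0.024 (adjusted p = 0.951 in limma). Insig2, its relative, was at 19.13, 18.50 and 16.72 FPKM and 17.96, 18.14 and 16.35 FPKM, a difference of -0.048 (adjusted p = 0.877 in limma). In neither Insig gene did the groups separate, and A4 was within the control range in both.

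**Figure D3:**
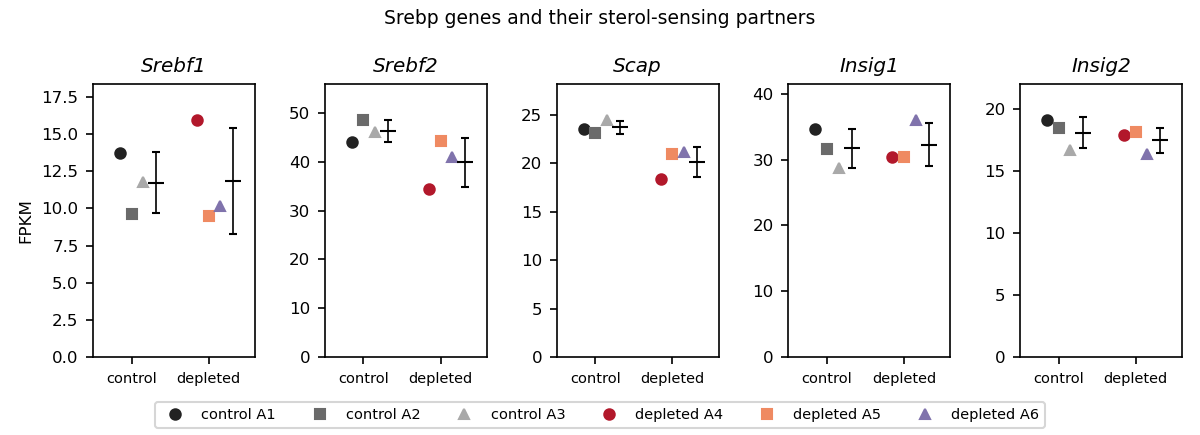
FPKM of Srebf1, Srebf2, Scap, Insig1 and Insig2 on the y axis of each panel, with a symbol per mouse and the mean and SD of each group of 3 as a bar beside the points. The depleted mice lie below the control mice in Scap, and A4 is the lowest mouse in Srebf2 and the highest in Srebf1.

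Genes of uptake, transport, esterification and turnover were the nearest to control levels, with a median difference of 0.0027 over 6 genes, from -0.11 for Lrp1 to 0.073 for Npc1. Lrp1, a large receptor that takes up lipoproteins, was at 30.15, 29.30 and 29.47 FPKM in control mice against 24.83, 30.47 and 27.04 FPKM in depleted mice (adjusted p = 0.683 in limma), and was the one gene of these 6 that was lowest in A4. Npc1 and Npc2, which hand cholesterol out of the lysosome, were at 12.5 ± 0.503 and 24.9 ± 2.46 FPKM in control mice against 13.2 ± 0.543 and 25.6 ± 1.77 FPKM in depleted mice (SD, n = 3 for each). Soat1, which esterifies cholesterol for storage, was at 4.67 ± 0.215 and 4.94 ± 0.539 FPKM (SD, n = 3 each), and Stard4, a carrier of cholesterol in the cytosol, at 5.27 ± 0.825 and 4.93 ± 0.597 FPKM (SD, n = 3 each). The adjusted p-values of the 6 genes in limma ran from 0.683 to 0.91. Cyp46a1 had the tightest estimate of the 30 genes, at 115.7 ± 8.24 FPKM against 112.8 ± 1.97 FPKM (SD, n = 3 per group), a difference of -0.034 with a 95% interval from -0.20 to 0.13.

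Among the fatty acid genes, Scd2 was by far the most abundant of the 30, with a mean of 322.1 FPKM over the 6 mice, above 98.8% of genes tested, followed by Cyp46a1 at 114.2, Hmgcs1 at 76.2 and Scd1 at 60.6 FPKM. Hsd17b7, Soat1, Stard4 and Lss had the lowest levels, from 4.28 to 5.65 FPKM. Scd1, a desaturase that makes oleate from stearate, was at 71.00, 60.99 and 61.30 FPKM in control mice against 49.78, 60.38 and 60.06 FPKM in depleted mice. The groups did not overlap, but A5 and A6 came within 1 FPKM of A2 (difference -0.18, standard error 0.10, adjusted p = 0.557 in limma; exact two-sided permutation test, p = 0.1). Scd2, the relative of Scd1 that prevails in brain, was at 359.30, 318.56 and 326.53 FPKM in control mice against 272.11, 335.27 and 320.91 FPKM in depleted mice, where A5 and A6 lay among the control mice (difference -0.12, adjusted p = 0.677 in limma). The ratio of Scd2 to Scd1 FPKM was 5.06, 5.22 and 5.33 in A1, A2 and A3 and 5.47, 5.55 and 5.34 in A4, A5 and A6. The depleted mice were all above the control mice in this ratio, with A6 close to A3 (p = 0.1 in an exact two-sided permutation test, which 3 mice against 3 cannot go below). Ratios between genes were not among the planned tests, and how often other pairs of genes separate the groups was not counted. The ratio of Insig1 to Insig2 was also computed, and there the groups overlapped. Fasn, the fatty acid synthase, was at 34.9 ± 2.37 FPKM against 34.6 ± 1.96 FPKM (SD, n = 3 per group), a difference of -0.0094 (adjusted p = 0.977 in limma), and A4 lay within the control range.

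What the synthesis genes had in common was their level in A4. A4 had the lowest value of the 6 mice in 18 of the 30 genes (60%), where it was lowest in 28.2% of all genes tested, and in 13 of the 16 enzymes of cholesterol synthesis (81.2%), all but Acat2, Lss and Hsd17b7. Against the control mean, the median of these 16 enzymes stood at -0.46, 0.063 and -0.031 in the 3 depleted mice, in order, on the log2 scale, while single control mice ran from -0.028 to 0.088. Over all genes tested the median of each mouse was between -0.0097 and 0.0056. In the largest gaps A4 stood at 59% of the control mean in Mvk, 63.2% in Tm7sf2, 63.7% in Mvd, 65% in Hmgcs1, 66% in Nsdhl and 66.8% in Idi1. These shares were read from 1 mouse and were noticed in the data, so they are given with no test. The count of 18 was 18 or 19 under the GC correction, quantile normalization, TPM and median-of-ratios scaling, checks chosen after the values were seen.

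**Figure D4:**
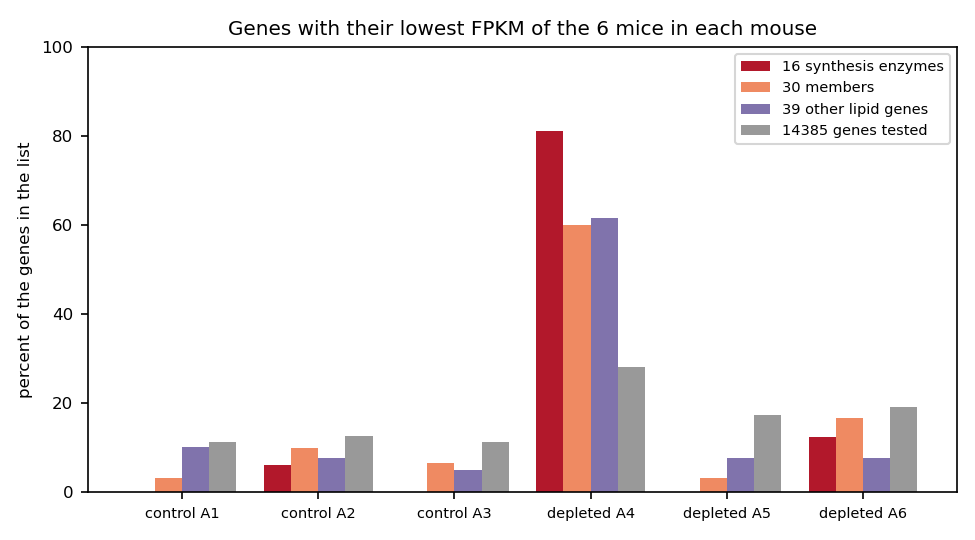
Percent of genes, on the y axis, that have their lowest FPKM of the 6 mice in each mouse, for the 16 enzymes of cholesterol synthesis, all 30 genes, 39 other lipid genes and all 14385 genes tested. The bars of A4 stand at 81.2%, 60%, 61.5% and 28.2%.

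Another list of 40 genes of cholesterol and fatty acid metabolism was also most often lowest in A4. Of its 39 genes tested, 24 (61.5%) were lowest in A4, 0 passed an adjusted p-value of 0.1 in limma, and 1 (2.56%) was under 0.05 before adjustment, where 10.5% of all genes tested were. The groups did not overlap in 6 of the 39 (15.4%, against 17.6% of all genes tested), 3 of them lower and 3 higher in depleted mice. Their median difference was -0.076, with 26 lower and 13 higher in depleted mice, and -0.028 without A4. The gene with the low p-value was Acss2, which makes acetyl-CoA from acetate, at 20.74, 20.43 and 20.90 FPKM in control mice against 14.42, 17.34 and 18.78 FPKM in depleted mice. All depleted mice were below all control mice (difference -0.29, unadjusted p = 0.0236 and adjusted p = 0.414 in limma). Sc4mol, now named Msmo1, the methyl sterol oxidase that works beside Nsdhl, was at 61.48, 55.11 and 56.06 FPKM in control mice against 30.17, 59.21 and 53.00 FPKM in depleted mice, and was chosen for mention after its values were seen.

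Markers of the cells that make most brain cholesterol had lower means in depleted mice. All 9 oligodendrocyte markers had lower means in depleted mice, with no overlap of the groups in 6 of them (17.6% of all genes tested did not overlap, and 9.38% with lower levels in depleted mice), and their summed FPKM was 2998.5 to 3267.9 in control mice against 2672.2, 2623.7 and 2713.9 in depleted mice. All 6 astrocyte markers had lower means, with no overlap in 2 of them. Their sums were 1013.2 to 1115.8 FPKM in control mice against 901.6, 974.6 and 955.7 FPKM in depleted mice. In both lists 0 genes passed an adjusted p-value of 0.1 in limma. A4 was the lowest mouse in 6 of the 9 oligodendrocyte and 4 of the 6 astrocyte markers, where it was lowest in 28.2% of all genes tested. Neuronal markers summed to 1930.7 to 2250.7 FPKM in control and 1964.0 to 2126.5 FPKM in depleted mice, and all 6 were present in each mouse. All 8 microglial markers were present as well, with sums of 127.2 to 149.8 FPKM and 144.4 to 216.7 FPKM. Of these 8, 6 had higher and 2 lower means in depleted mice, with no overlap in 5, where 17.6% of all genes tested did not overlap. All 3 markers of oligodendrocyte precursors had lower means, with no overlap in 2. All 4 endothelial markers had higher means, with no overlap in 1. Choroid plexus markers, a sign of tissue beyond cortex, summed to 165.6 to 321.9 FPKM in control and 44.6 to 69.2 FPKM in depleted mice. Of the 5 listed, 4 were tested, all with lower means and with no overlap in 1. Markers of the meninges summed to 47.4 to 51.7 FPKM in control and 33.3 to 43.4 FPKM in depleted mice. Of these 5, 4 had lower and 1 higher means, with no overlap in 1. The part of cell makeup in these differences was not tested.

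RefSeq promoter sequence on GRCm38.p6 was matched to 23 of the 30 genes, as windows of 250 bases before to 50 after each start. The other 7 (Fdps, Fdft1, Sqle, Npc1, Stard4, Scd1 and Scd2) had no window and were not searched. The windows were searched on both strands for the core of the sterol response element bound by Srebp (TCACNCCAC), for the CCAAT box of NF-Y and the GGGCGG box of Sp1, factors known to act beside Srebp, and for the E-box CACGTG. The CCAAT box was found in 20 of the 23 genes (87%), against 42.8% of the 10577 tested genes with a window, and the Sp1 box in 21 (91.3%), against 68%. The sterol element core was found in 1 gene, Hmgcs1 (4.35%, against 1.41%), and the E-box in 4 (17.4%, against 11.5%). Only exact matches to these letters were counted, so sites that vary from them were left out. The 200 bases before the start are printed for 4 genes, with matches to any of the 4 motifs, which did not overlap each other, in capitals. Hmgcs1 is shown as the gene with the sterol element core, and Mvk and Scap as those with the lowest p-values. Srebf2 is shown as a regulator that, like Scap, was lowest in A4.
Hmgcs1, chr13:119690151-119690350, plus strand: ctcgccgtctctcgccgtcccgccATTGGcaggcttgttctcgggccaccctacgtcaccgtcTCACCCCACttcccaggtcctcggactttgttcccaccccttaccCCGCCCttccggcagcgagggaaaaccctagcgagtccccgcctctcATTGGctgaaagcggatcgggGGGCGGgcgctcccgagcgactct
Mvk, chr5:114444069-114444268, plus strand: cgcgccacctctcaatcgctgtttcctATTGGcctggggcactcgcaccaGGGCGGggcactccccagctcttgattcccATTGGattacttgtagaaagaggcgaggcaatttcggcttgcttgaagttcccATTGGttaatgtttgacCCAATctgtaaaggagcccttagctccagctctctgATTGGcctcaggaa
Srebf2, chr15:82147069-82147268, plus strand: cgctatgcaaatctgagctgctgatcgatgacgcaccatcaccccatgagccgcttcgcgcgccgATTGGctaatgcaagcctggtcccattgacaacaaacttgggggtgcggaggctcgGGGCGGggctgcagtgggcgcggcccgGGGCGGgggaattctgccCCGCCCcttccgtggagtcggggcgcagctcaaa
Scap, chr9:110333088-110333287, plus strand: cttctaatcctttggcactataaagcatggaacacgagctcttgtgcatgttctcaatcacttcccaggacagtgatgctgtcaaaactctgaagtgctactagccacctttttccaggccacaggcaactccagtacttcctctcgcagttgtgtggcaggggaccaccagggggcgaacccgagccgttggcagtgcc
Mvk held 5 CCAAT boxes and Hmgcs1 held 2, while none of the 4 motifs was in the stretch shown for Scap. These letters describe the windows only and were not tied to binding here.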

How the data were processed

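Cortical poly(A) RNA of 3 control and 3 depleted mice, each a separate animal, was analysed, with groups from the sample titles. The authors aligned paired-end reads with TopHat and quantified them with RSEM (build mm9 per the submitters' processing notes, versions not given in the sources used here), and deposited TMM-scaled FPKM per gene and mouse, rounded to 2 decimals. Their DESeq results, from raw counts at the same threshold of 0.1, were not used. The paper called many more genes by that route than limma did here on FPKM. The 14385 of 23366 genes averaging 0.5 FPKM or more were put on the log2(FPKM + 1) scale, which understates the fold change of low genes, and compared in limma 3.58.1 (R 4.3.3; eBayes with trend, no covariate). P-values were adjusted over all genes tested (Benjamini-Hochberg, threshold 0.1 after the authors' methods). For single genes a two-sided exact permutation test was added, whose smallest p-value here is 0.1. The 30 genes, their roles, the other lists and the tests were chosen with earlier results of these data known. Full values are given for genes with an unadjusted p-value under 0.05, with groups that did not overlap, or with the highest or lowest difference of their role, and for the 5 Srebp genes. Others were added for their role after their values were seen. Depth was read from the spacing of low values in 1813 genes with 1 transcript of 400 to 1500 bases (GENCODE M21, GRCm38). The fragments behind a gene assume its longest coding transcript, and the counting error given covers counting only. In simulated data for this comparison, 200 of 14385 genes were shifted by 1 on the log2 scale. They were drawn only from genes with a mean above 1 on the log2(FPKM + 1) scale. There limma recovered 177 of the 200 (88.5%), each with the correct sign, beside 24 false calls. That shift exceeds every difference seen in the 30 genes (largest -0.38, for Mvk), and no simulated mouse stood apart as A4 did. The recovery therefore does not carry over to differences of the size seen here. In the real data 0 of 10 interferon-stimulated genes passed, with a median difference of 1.78, so the recovery does not describe this comparison. Other steps used Python 3.11.15 with scipy 1.17.1, pandas 2.3.3, numpy 2.4.6 and matplotlib 3.10.9. The settings varied were the pseudocount (0.1), the filter (none, or a mean of 1 FPKM), the scaling (TPM, median of ratios, quantiles), the variance model (no trend, robust, array weights), the threshold (0.05), a correction for GC content and the set of mice, each left out in turn.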

Additional observations from a re-analysis of the deposited data

How the results depend on the processing

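No paired analysis was possible because the replicate numbers in the titles run from 1 to 6 across both groups and none is shared. None of the 30 genes passed an adjusted p-value of 0.1 in limma under any alternative; the lowest adjusted p-value was 0.228, for Mvk. Of the other lipid genes 0 passed as well. Over all genes tested 4 passed, far fewer than the paper called with DESeq on counts at the same threshold. That count was 2 without trend, 20 with array weights and 2 to 29 as each mouse was left out (2 without A1, 29 without A5, 8 without A6). Over all genes tested 1515 had an unadjusted p-value under 0.05, against 786 to 2056. Of the 30 genes 2 had such a p-value, against 0 after the GC correction and 0 to 4 as each mouse was left out (0 without A1 or A3, 1 without A2, 4 without A5). The groups did not overlap in 3 genes, against 1 with TPM, 1 after the GC correction and 5 to 8 as each mouse was left out (8 without A5), where fewer mice make overlap rarer. Of the other lipid genes 1 had an unadjusted p-value under 0.05, against 2 with no filter, with quantile normalization, without trend and after the GC correction, and 0 to 6 as each mouse was left out (0 without A1 or A3, 2 without A4, 6 without A5, 3 without A6). The cause of these shifts was not tested. The median of the 30 genes was between -0.15 (without A5) and -0.03 (without A4). In 472 of 510 values for single genes the sign was kept, and 15 genes changed sign, none of them past the threshold. The 510 include settings that leave the difference itself unchanged (the filters, no trend, robust and the threshold). In those settings the sign could not change, so the count of kept signs overstates stability. Srebf1 was at 0.00067 with median-of-ratios scaling. With array weights Acat2 was at -0.013, Sqle at 0.03, Tm7sf2 at 0.026, Nsdhl at 0.13, Ebp at 0.043 and Npc2 at -0.0019. After the GC correction Acat2 was at -0.0038, Srebf1 at 0.11, Insig1 at -0.0087, Cyp46a1 at 0.01 and Fasn at 0.096. As each mouse was left out, differences ran from -0.066 to 0.068 for Acat2, -0.23 to 0.049 for Pmvk, -0.09 to 0.048 for Fdft1, -0.11 to 0.12 for Sqle, -0.029 to 0.3 for Lss, -0.22 to 0.2 for Tm7sf2, -0.15 to 0.26 for Nsdhl, -0.13 to 0.08 for Ebp, -0.22 to 0.12 for Srebf1, -0.055 to 0.089 for Insig1, -0.038 to 0.097 for Npc2, -0.0089 to 0.11 for Soat1, -0.093 to 0.0051 for Cyp46a1, -0.16 to 0.024 for Stard4 and -0.046 to 0.044 for Fasn. At the estimated depth the largest counting error among the 30 genes was 12.7%, for Mvk in A5.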

Other observations

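Other enzymes that make or modify oxysterols, as listed here, were at far lower levels than Cyp46a1, which averaged 114.2 FPKM over the 6 mice. Ch25h, the cholesterol 25-hydroxylase known as a target of interferon in macrophages, was under the filter, at 0.40, 0.07 and 0.20 FPKM in control mice against 0.80, 0.62 and 0.20 FPKM in depleted mice, so the groups overlapped. Cyp27a1, the sterol 27-hydroxylase, was at 3.29, 2.27 and 3.58 FPKM against 1.49, 2.51 and 2.86 FPKM, with A4 the lowest. Cyp39a1, which acts on 24-hydroxycholesterol, the product of Cyp46a1, was at 1.13, 1.24 and 1.03 FPKM against 0.57, 0.91 and 0.61 FPKM, with every depleted mouse below every control mouse (difference -0.33 on the log2(FPKM + 1) scale, adjusted p = 0.497 in limma). Cyp7b1, the oxysterol 7-hydroxylase, was at 4.92 to 6.23 FPKM in control and 4.38 to 6.25 FPKM in depleted mice.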
